A study of Mus musculus with 9 samples.

Results

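The growth factor and cytokine receptors of neutrophils were followed through 10 genes, picked by symbol as receptors of known neutrophil cytokines, with earlier results of these data known: Csf3r, Csf2ra, Csf2rb, Csf2rb2, Csf1r, Il6ra, Il4ra, Ifngr1, Ifngr2 and Il10ra. Each symbol had 1 row among the 46517 genes of the expression table. All 10 passed the filter on low values, a log2 FPKM (fragments scaled by gene length and library size, on a log2 scale) over 0 in at least 3 libraries, which left 7794 genes for testing, and none of the 10 passed through the libraries of 1 site alone. The neutrophils came from C57BL/6 mice that had received cells of a mouse pancreatic tumor line by injection into the pancreas, here called orthotopic transplanted (OT) mice. At day 27 cells were sorted from bone marrow, blood and the pancreatic tumor, 3 libraries each, as live CD45+ Ly6G+ Ly6C+ cells negative for CD3, B220 and NK1.1. The labels give the bone marrow cells as Ly6G high and the others as Ly6G+. All 9 libraries came from OT mice, 5 mice pooled per experiment, so every contrast is between sites of tumor-bearing animals, and the tumor model is 1 cell line.

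Cytokine receptors of this kind have no enzyme activity of their own: the ligand brings receptor chains together, and JAK kinases bound to the chains phosphorylate each other and the STAT factors that then enter the nucleus. G-CSF, acting through CSF3R, is the main driver of neutrophil production in the marrow, and GM-CSF, interferon gamma and interleukins 4, 6 and 10 modify survival and activation of the mature cell. CSF1R is the exception in the set, a receptor tyrosine kinase best known from monocytes and macrophages.

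The libraries held 7108871 to 7949367 reads in bone marrow, 4580807 to 6830374 in the blood and 5446499 to 6969557 in tumor. Libraries of the same site correlated at 0.875 to 0.933 across genes and libraries of different sites at 0.415 to 0.793. The authors' scaling factors averaged 0.84 in bone marrow and blood but 1.15 in tumor. Scaling by plain library totals instead raised the median of all tested genes by 0.45 (log2) in both contrasts with tumor and by 0.00 in blood against bone marrow. All 10 neutrophil markers passed the filter, with a summed level of 61400 to 66500 RPM (reads scaled to library size) in bone marrow, 41100 to 44100 in the blood and 10600 to 13200 in tumor. The markers include Csf3r, itself a receptor of the set, with means of 2540, 12700 and 2680 RPM in the same order, so this sum is not independent of it. Ly6g itself had 4527 to 5241, 580 to 654 and 200 to 456 reads at the 3 sites. Markers of pancreatic tumor epithelium summed to 2650 to 5060 RPM in tumor libraries against 10.1 to 13.5 in bone marrow and 25.4 to 172 in blood. Fibroblast markers summed to 970 to 1110 RPM in tumor, 5.68 to 12.5 in bone marrow and 0.213 to 5.37 in blood. Acinar markers summed to 605 to 2360 RPM in tumor, 1.59 to 6.63 in bone marrow and 2.78 to 10.4 in blood. The part of these cells in the results with tumor below was not tested. Blood libraries stood apart by red cell and platelet markers, 912 to 1240 RPM against 40.4 to 71.8 in bone marrow and 13.9 to 130 in tumor. In such bulk libraries fewer cells of a type and less RNA per cell cannot be told apart.

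Blood neutrophils carried the highest levels of most of these receptors. The mean log2 FPKM was highest in blood for 8 of the 10 genes, in bone marrow for Csf2ra and in tumor for Il10ra. For Csf2rb2 the blood libraries (mean 3.71) overlapped those of tumor (3.63). The leading libraries of Csf2ra (6.86 against 6.78) and Il10ra (4.17 against 3.64) overlapped those of blood. Between bone marrow and blood 9 of 10 were higher in the blood and none was lower (limma, Benjamini-Hochberg adjusted p below 0.05), against 44.2% of all tested genes called, 20.6% of them higher and 23.6% lower as shares of all tested. Between blood and tumor 8 of 10 were lower in tumor and 1, Il10ra, was higher, against 62.6% of all tested genes called, 28.1% higher and 34.5% lower. Between bone marrow and tumor 3 of 10 were higher in tumor and 5 lower, against 55.3% of all tested genes called, 22.4% higher and 32.9% lower. With plain library totals the split between bone marrow and tumor became 4 higher and 2 lower, while the other two contrasts kept 9 higher, and 1 higher with 8 lower.

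The median log2 fold change of the 10 genes was 1.40 for blood against bone marrow, -1.39 for tumor against blood and -0.19 for tumor against bone marrow, where the medians of all tested genes were -0.04, -0.17 and -0.21. The library ranges did not overlap for 9, 8 and 8 of the 10 genes in these contrasts, against 58.8%, 67.0% and 63.9% of all tested genes. In blood against bone marrow all 9 lay above (27.8% of all tested genes), in tumor against blood all 8 lay below (37.0%), and in tumor against bone marrow 3 lay above and 5 below (26.2% and 37.7%). Blood takes part in 2 of the contrasts and tumor in 2, so the contrasts share libraries. Summed over the 10 genes the level was 5619 ± 646 RPM in bone marrow, 20080 ± 915 in the blood and 5828 ± 966 in tumor (mean ± SD, n = 3 each). Csf3r made up 45.0 ± 2.14%, 63.4 ± 1.63% and 46.1 ± 0.787% of these sums.

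**Figure D1:**
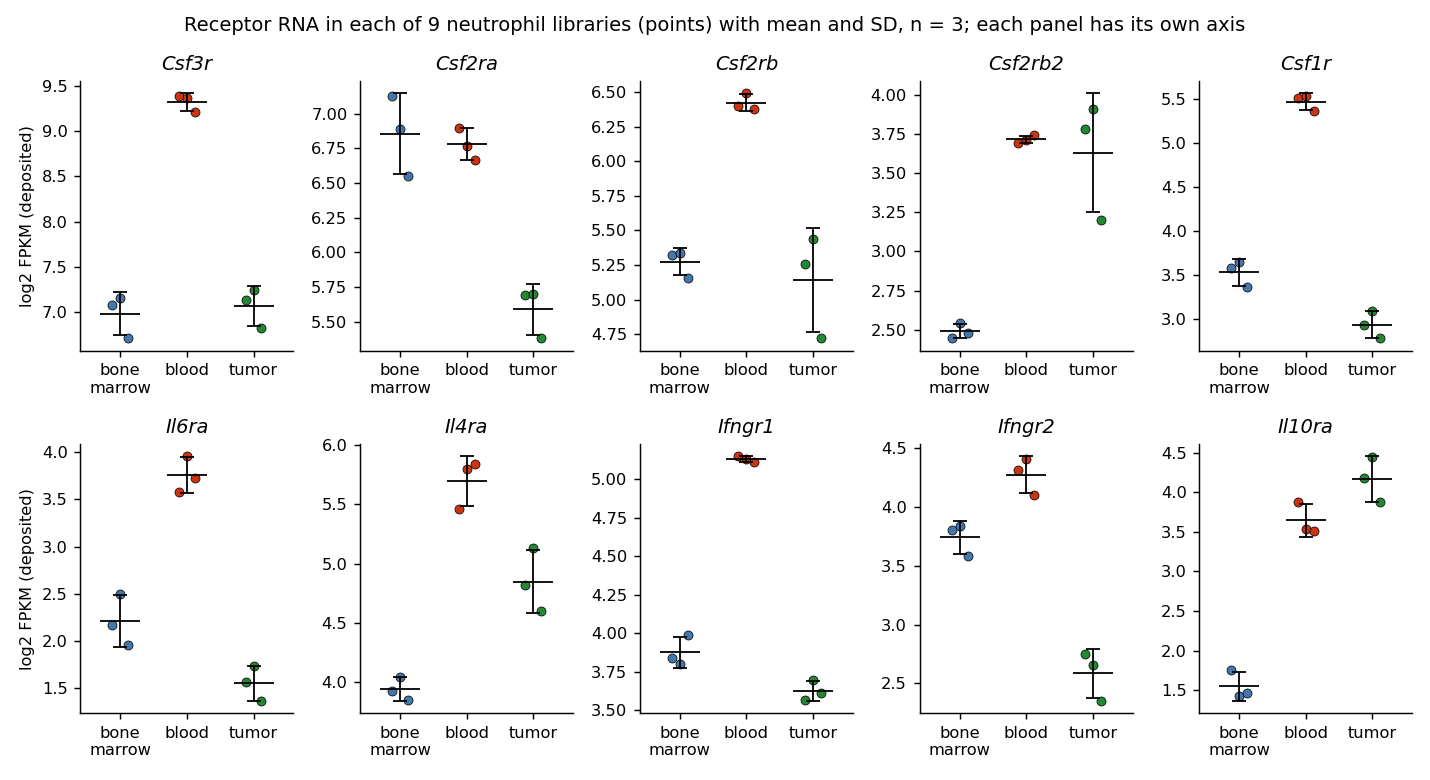
Log2 FPKM of each of the 10 receptor genes in the 3 bone marrow, 3 blood and 3 tumor libraries, 1 panel per gene, with points for libraries, lines for the mean and SD, and an axis of its own per panel. Blood has the highest mean in 8 panels, though it overlaps tumor in the Csf2rb2 panel. In the Csf2ra panel bone marrow leads with a mean of 6.86 and in the Il10ra panel tumor leads with 4.17, each overlapping blood.

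**Figure D2:**
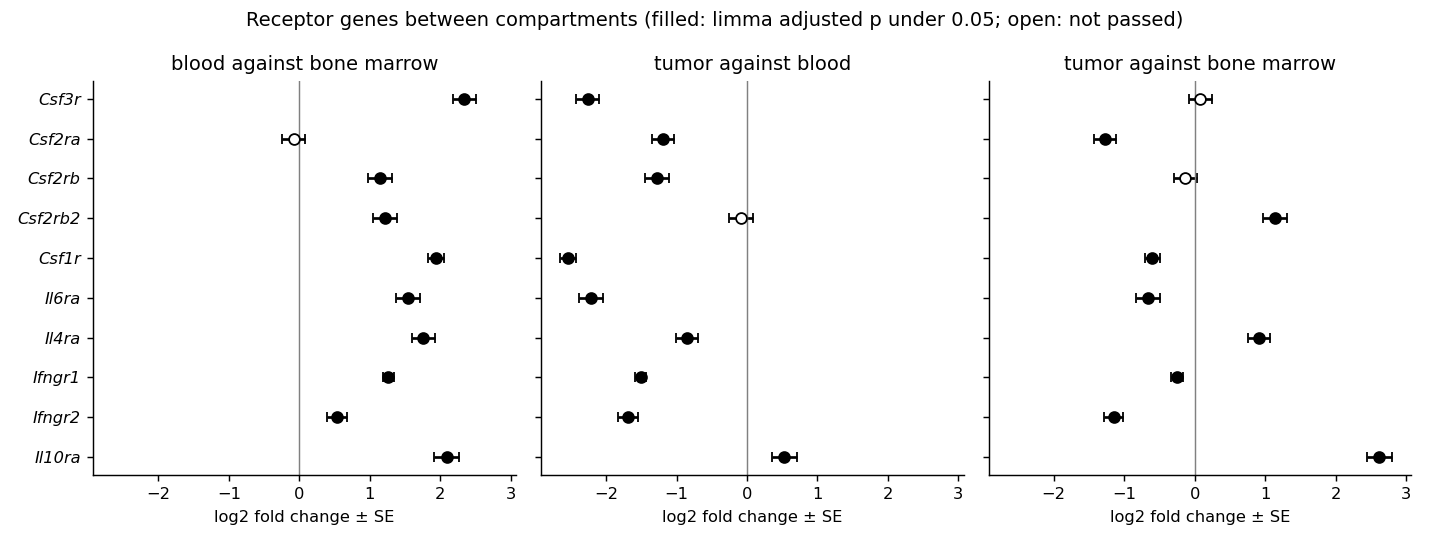
Log2 fold change of each receptor gene in the 3 contrasts between sites, with bars for the standard error of the limma fit filled points for adjusted p below 0.05 and open points for the rest. Blood against bone marrow has 9 genes called above 0, and tumor against blood has 8 called below 0.

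Csf3r encodes the G-CSF receptor, which drives granulocyte production and mobilization, and lies on the plus strand at chr4:126024550-126044440 (GRCm38). In the bone marrow libraries its log2 FPKM was 7.08, 7.16 and 6.71, in blood 9.39, 9.36 and 9.21, and in tumor 7.13, 7.25 and 6.82. The blood libraries thus stood above all others, and the bone marrow and tumor ranges overlapped. These values rest on 13802 to 18048 reads in bone marrow, 52750 to 72754 in the blood and 17234 to 22928 in tumor. Csf3r was 5.05-fold higher in blood than in bone marrow (log2 fold change 2.34, SE 0.16, adjusted p = 3.34e-05) and 4.78-fold lower in tumor than in blood (log2 fold change -2.26, SE 0.16, adjusted p = 1.45e-05). Between tumor and bone marrow the log2 difference was 0.08 (SE 0.16, adjusted p = 0.685), which became 0.53 (adjusted p = 0.00583) with plain library totals, the adjusted p ranging from 0.00583 to 1.0 over 19 alternatives.

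GM-CSF signals through the alpha chain encoded by Csf2ra, which binds the ligand, and the common beta chain encoded by Csf2rb, which carries the signal and is shared with the interleukin 3 and 5 receptors. Mice have an additional beta chain gene, Csf2rb2, whose product serves interleukin 3 alone. Csf2ra lies on the minus strand at chr19:61223957-61228429, Csf2rb on the plus strand at chr15:78325752-78353847, and Csf2rb2 on the minus strand at chr15:78282507-78305721. The coding sequences of the beta chain genes, 2691 and 2637 bases long, were identical at 2505 of 2631 aligned bases (95.2%), with 126 bases that differ. Of all stretches of 150 bases, close to the read length, 6.49% in Csf2rb and 6.63% in Csf2rb2 were found unchanged in the other gene. Reads from these stretches could have come from either gene, so the counts of both are uncertain. Where the genes differ most closely spaced, in a window of 90 bases with 16 differing (in capitals), reads can be told apart. The window covers coding positions 308 to 397 of Csf2rb (chr15:78338897-78338986, plus strand) and 311 to 400 of Csf2rb2 (chr15:78294345-78294434, minus strand), and is shown 5′ to 3′ from GRCm38.
Csf2rb: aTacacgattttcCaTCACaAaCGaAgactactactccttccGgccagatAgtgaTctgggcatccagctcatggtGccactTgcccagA
Csf2rb2: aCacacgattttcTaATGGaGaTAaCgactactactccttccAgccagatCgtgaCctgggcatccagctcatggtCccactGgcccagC

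The 3 chains did not move together. Csf2ra had log2 FPKM values of 7.13, 6.89 and 6.55 in bone marrow, 6.90, 6.77 and 6.67 in the blood, and 5.69, 5.70 and 5.38 in tumor. Every tumor library lay below every other, and bone marrow and blood overlapped. Csf2ra was 2.28-fold lower in tumor than in blood (log2 fold change -1.19, SE 0.16, adjusted p = 0.000372) and 2.41-fold lower than in bone marrow (-1.27, SE 0.16, adjusted p = 0.000332), with a difference of -0.08 between blood and bone marrow (SE 0.16, adjusted p = 0.739).

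For Csf2rb the log2 FPKM was 5.32, 5.34 and 5.16 in bone marrow, 6.40, 6.49 and 6.38 in the blood, and 5.26, 5.44 and 4.72 in tumor. Only the blood libraries stood apart. It was 2.22-fold higher in blood than in bone marrow (log2 fold change 1.15, SE 0.17, adjusted p = 0.0013) and 2.43-fold lower in tumor than in blood (-1.28, SE 0.17, adjusted p = 0.000362). Tumor and bone marrow differed by -0.13 (SE 0.17, adjusted p = 0.554).

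Csf2rb2 had 2.45, 2.54 and 2.48 in bone marrow, 3.69, 3.71 and 3.74 in the blood, and 3.78, 3.91 and 3.20 in tumor on the same scale. Here the bone marrow libraries were the ones apart, below all others, and blood and tumor overlapped. Csf2rb2 was 2.33-fold higher in blood (log2 fold change 1.22, SE 0.17, adjusted p = 0.000908) and 2.20-fold higher in tumor (1.14, SE 0.17, adjusted p = 0.000769) than in bone marrow. The difference between tumor and blood was -0.09 (SE 0.17, adjusted p = 0.683) and became 0.36 (adjusted p = 0.0509) with plain library totals, its lowest adjusted p over the alternatives. There were 7.45 ± 0.485 Csf2rb reads per Csf2rb2 read in bone marrow, 7.10 ± 0.325 in the blood and 3.10 ± 0.0564 in tumor (mean ± SD, n = 3 each), so the tumor libraries, from 3.04 to 3.15, lay below the 6.78 to 7.89 of the others. This ratio within a library does not depend on the scaling.

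Csf1r, the M-CSF receptor, lies on the plus strand at chr18:61100598-61132149. Its log2 FPKM was 3.58, 3.65 and 3.36 in bone marrow, 5.51, 5.54 and 5.36 in the blood, and 2.93, 3.09 and 2.78 in tumor. The 3 sites did not overlap. Csf1r was 5.80-fold lower in tumor than in blood (log2 fold change -2.54, SE 0.11, adjusted p = 2.74e-06), and was 3.84-fold higher in blood than in bone marrow (1.94, SE 0.11, adjusted p = 2.08e-05). It was 1.51-fold lower in tumor than in bone marrow (-0.60, SE 0.11, adjusted p = 0.00292), a call lost with plain library totals (-0.14, adjusted p = 0.191, range over alternatives 0.000984 to 0.191).

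Since Csf1r also marks monocytes and macrophages, a list of 16 of their markers was read beside it. The list summed to 640 to 987 RPM in bone marrow, 1030 to 1330 in the blood and 540 to 851 in tumor, so it was highest in blood as Csf1r was. Of the 10 markers that passed the filter, 1, C1qb, was higher and 2 were lower in tumor than in the blood. In blood 4 were higher and 1, C1qc, was lower than in bone marrow. The shares of all tested genes were 28.1% higher and 34.5% lower, and 20.6% and 23.6%, in the same order. Adgre1, counted as higher in blood, would not have passed the filter without the blood libraries. C1qb and C1qc would not have passed without the tumor libraries, nor C1qc and Lyz1 without the bone marrow libraries. In the blood libraries Csf1r had 4796 to 6885 reads. Reads are not scaled by gene length, so they do not rank Csf1r against the markers. Of the 4 markers counted as higher in blood, Adgre1 had 838 to 1256 reads there, Cd68 770 to 1051, Apoe 805 to 1149 and Ctss 1125 to 1566. C1qa had 3 to 12, Mertk 0 to 6 and Ms4a7 0. Ccr2 and F13a1 of the same list went the other way. Their mean log2 FPKM was 2.47 and -0.24 in blood, below the 3.43 and 0.51 of bone marrow. For Ccr2 this difference was not called (limma adjusted p = 0.062), and F13a1 did not pass the filter. The part of such cells in the Csf1r level was not tested. Dendritic cell markers summed highest in blood, 136 to 185 RPM against 28.1 to 48.0 in bone marrow and 38.6 to 57.3 in tumor. Of the 8 markers 2, Itgax and Ccr7, passed the filter, Ccr7 only through the blood libraries. Itgax had the most reads of them in blood, 515 to 683 against 78 to 117 in bone marrow. Siglech and Flt3 went the other way, with mean log2 FPKM of -2.92 and -4.06 in blood, below the -0.12 and -3.25 of bone marrow. The part of dendritic cells in the Csf1r level was not tested. Csf1r exons overlap 873 bases of Hmgxb3 on the opposite strand, and the library protocol keeps no strand, so reads there cannot be told apart.

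Il6ra encodes the ligand-binding chain of the interleukin 6 receptor, which neutrophils are known to shed for trans-signaling, and lies on the minus strand at chr3:89864059-89913196. The log2 FPKM of Il6ra was 2.17, 2.50 and 1.96 in bone marrow, 3.58, 3.96 and 3.73 in the blood, and 1.56, 1.73 and 1.36 in tumor. Sites did not overlap, with blood highest and tumor lowest. It was 2.92-fold higher in blood than in bone marrow (log2 fold change 1.54, SE 0.17, adjusted p = 0.000346) and 4.61-fold lower in tumor than in blood (-2.21, SE 0.17, adjusted p = 2.47e-05). The lower level in tumor than in bone marrow (-0.66, SE 0.17, adjusted p = 0.0128) was not called with plain library totals (-0.21, adjusted p = 0.222) or with no filter (adjusted p = 0.0626), the range over alternatives being 0.00397 to 0.222. Il6ra shares 242 exonic bases with the antisense gene Gm42809.

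Il4ra, the signaling chain for interleukins 4 and 13, lies on the plus strand at chr7:125552120-125579474. Its values were 3.93, 4.05 and 3.85 in bone marrow, 5.46, 5.80 and 5.84 in the blood, and 4.82, 5.13 and 4.60 in tumor (log2 FPKM). The tumor libraries lay between the other sites with no overlap. Il4ra was 3.38-fold higher in blood than in bone marrow (log2 fold change 1.76, SE 0.16, adjusted p = 0.000117), 1.80-fold lower in tumor than in blood (-0.85, SE 0.16, adjusted p = 0.00194) and 1.88-fold higher in tumor than in bone marrow (0.91, SE 0.16, adjusted p = 0.00164). Quantile normalization alone among the 19 alternatives lost the call between tumor and blood (adjusted p = 0.0661, range 0.000129 to 0.0661). Il4ra shares 571 exonic bases with the antisense gene Gm44876.

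Interferon gamma is bound by the chain that Ifngr1 encodes and needs the chain of Ifngr2 to signal. Ifngr1 lies at chr10:19591949-19610229 and Ifngr2 at chr16:91547072-91565623, both on the plus strand. The log2 FPKM of Ifngr1 was 3.84, 3.80 and 3.99 in bone marrow, 5.15, 5.13 and 5.11 in the blood, and 3.57, 3.70 and 3.61 in tumor. It was 2.39-fold higher in blood than in bone marrow (log2 fold change 1.26, SE 0.08, adjusted p = 2.18e-05) and 2.84-fold lower in tumor than in blood (-1.51, SE 0.08, adjusted p = 4.17e-06). The small difference between tumor and bone marrow (-0.25, SE 0.08, adjusted p = 0.0245) was lost in 7 of 19 alternatives and turned to 0.20 with plain library totals (adjusted p = 0.115, range over alternatives 0.0232 to 0.859). The replicates whose omission lost it were bone marrow 1 and 3 and tumor 1.

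For Ifngr2 the libraries gave 3.80, 3.84 and 3.58 in bone marrow, 4.31, 4.41 and 4.10 in the blood, and 2.75, 2.66 and 2.35 in tumor. Its tumor libraries were the lowest by a wide gap. Ifngr2 was 3.22-fold lower in tumor than in blood (log2 fold change -1.69, SE 0.14, adjusted p = 2.98e-05) and 2.22-fold lower than in bone marrow (-1.15, SE 0.14, adjusted p = 0.000249). The higher level in blood than in bone marrow (0.53, SE 0.14, adjusted p = 0.0157) was lost in 4 alternatives, among them leaving out bone marrow replicate 3 (adjusted p = 0.0574) and blood replicate 2 (adjusted p = 0.0548), in a range of 0.00372 to 0.0805.

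Il10ra encodes the ligand-binding chain for interleukin 10, an anti-inflammatory cytokine, and lies on the minus strand at chr9:45253837-45269149. Its log2 FPKM was 1.76, 1.42 and 1.46 in bone marrow, 3.88, 3.54 and 3.51 in the blood, and 4.18, 4.45 and 3.87 in tumor. Bone marrow lay far below, and the lowest tumor library was just under the highest blood library. Il10ra was 4.27-fold higher in blood (log2 fold change 2.09, SE 0.18, adjusted p = 9.64e-05) and 6.14-fold higher in tumor (2.62, SE 0.18, adjusted p = 1.47e-05) than in bone marrow. The step from blood to tumor (0.53, SE 0.18, adjusted p = 0.0323) was lost in 6 of 19 alternatives, which included the omission of blood replicates 2 or 3 or tumor replicates 1 or 2 (range 0.00119 to 0.137).

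To compare genes with each other, recovered reads were divided by the exon length and by the scaled library size, as RPM per exonic kilobase. On this scale Csf3r led at every site, with 703 ± 112 in bone marrow, 3530 ± 224 in the blood and 743 ± 112 in tumor (mean ± SD, n = 3 each). In bone marrow Csf2ra (164 ± 32.2) and Csf2rb (133 ± 8.87) followed and overlapped each other, and Il10ra was last at 12.9 ± 1.71. In blood Csf2rb (295 ± 11.1) came next, then Il4ra (237 ± 33.1) and Ifngr1 (225 ± 3.53), which overlapped, and Il10ra was again last at 55.0 ± 8.10, overlapping Csf2rb2 at 63.9 ± 1.09. In tumor Il4ra (132 ± 24.5), Csf2rb (124 ± 30.2), Il10ra (79.7 ± 15.8) and Ifngr1 (79.4 ± 3.59) followed Csf3r, each overlapping the next. Il6ra was last there at 16.7 ± 2.10. Il10ra thus moved from rank 10 in bone marrow and blood to rank 4 in tumor, and Csf2ra from rank 2 in bone marrow to rank 6 in the blood and tumor.

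**Figure D3:**
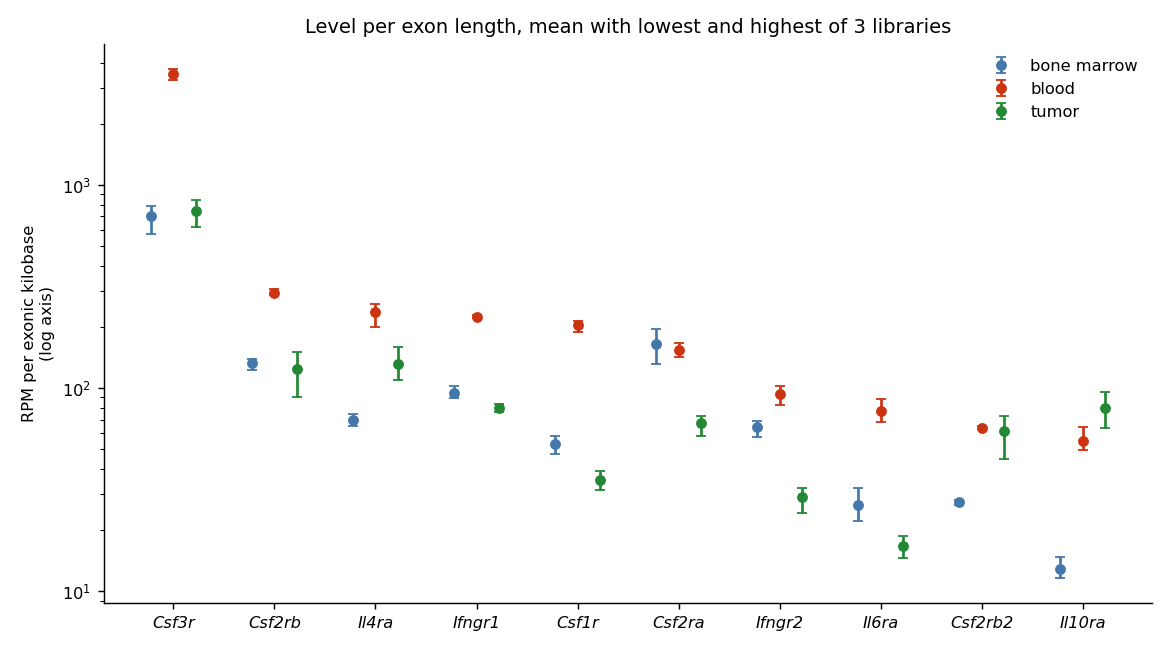
Level of the 10 receptor genes per exon length at each site, as RPM per exonic kilobase on a log axis, with points for the mean and bars from the lowest to the highest of 3 libraries. Csf3r is at the top at every site (703, 3530 and 743 on average), and Il10ra is the lowest in bone marrow and blood but not in tumor, where Il6ra is at 16.7.

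Most of these receptors work as a pair of chains, so the difference in log2 FPKM between partner chains was computed in each library for 6 receptor pairs. To these was added the difference between the alternative beta chains Csf2rb and Csf2rb2, which are not partners in a receptor. The differences were compared between sites with an exact permutation test over all 280 ways to assign libraries to sites. Since the deposited lengths differ from gene to gene, only the change of a difference between sites is read, not its size. All 7 differences varied between sites after adjustment over the 7 tests (the smallest exact p this design allows is 0.00357). Csf2ra minus Csf2rb was 1.59 ± 0.21 in bone marrow, 0.36 ± 0.12 in the blood and 0.45 ± 0.20 in tumor (exact permutation p = 0.025, adjusted p = 0.025). Csf2rb minus Csf2rb2 was 2.78 ± 0.09, 2.71 ± 0.07 and 1.51 ± 0.03 in the same order (exact permutation p = 0.0143, adjusted p = 0.0167). Ifngr1 minus Ifngr2 was 0.14 ± 0.23, 0.86 ± 0.14 and 1.04 ± 0.22 (exact permutation p = 0.0143, adjusted p = 0.0167). The test asks whether the 3 sites differ at all and gives no verdict for a single pair of sites.

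Chains outside the set shifted the balance further. Il6st encodes gp130, the signaling chain for interleukin 6, and had 31 to 64 reads in bone marrow, 18 to 28 in the blood and 255 to 466 in tumor, too low for the filter. Il6ra minus Il6st was 4.82 ± 0.69 in bone marrow, 7.04 ± 0.75 in the blood and 1.56 ± 0.49 in tumor (exact permutation p = 0.00357, adjusted p = 0.00833). As gp130 is made by nearly all cells, the epithelial, fibroblast and acinar markers of the tumor libraries stand beside this value, and their part was not tested. Il10rb encodes the signaling chain for interleukin 10, and Il10ra minus Il10rb was -1.25 ± 0.18 in bone marrow, 0.09 ± 0.37 in the blood and 1.17 ± 0.07 in tumor (exact permutation p = 0.00357, adjusted p = 0.00833). Il10rb itself was lower in tumor than in blood (log2 fold change -0.56, adjusted p = 0.00782), a call not kept with plain library totals (-0.11, adjusted p = 0.419).

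Il4ra pairs with the common gamma chain of Il2rg or with Il13ra1, which also serves interleukin 13. Il4ra minus Il2rg was 1.32 ± 0.25 in bone marrow, 3.34 ± 0.79 in the blood and 2.53 ± 0.03 in tumor (exact permutation p = 0.00357, adjusted p = 0.00833). Il4ra minus Il13ra1 was 2.02 ± 0.07, 1.13 ± 0.18 and 1.91 ± 0.08 (exact permutation p = 0.0107, adjusted p = 0.0167). Il13ra1 rose from bone marrow to blood (log2 fold change 2.65, adjusted p = 2.82e-05) and was lower in tumor than in blood (-1.63, adjusted p = 9.77e-05). The alpha chains that share Csf2rb went different ways. Il3ra had 50 to 65 reads in bone marrow, 6 to 18 in the blood and 40 to 82 in tumor and was not tested. Il5ra had 5, 0 and 2 reads in bone marrow, 10, 0 and 10 in the blood, and 292, 300 and 459 in tumor. Il5ra passed the filter only through the tumor libraries, so no test is given. It is best known from eosinophils. Their granule genes Epx and Prg2 had 78 to 141 and 138 to 326 reads in bone marrow and 0 in blood libraries. In tumor Epx had 0 and Prg2 0 to 2. Ccr3 of the same list had 26 to 47 reads in bone marrow, 34 to 60 in blood libraries and 21 to 60 in tumor. Siglecf, a surface marker of the list, had 157 to 231 reads in bone marrow, 534 to 875 in blood libraries and 1001 to 1691 in tumor. The 5 markers of the list, Il5ra included, summed to 203 to 271 RPM in tumor, 125 to 167 in blood libraries and 73.3 to 98.2 in bone marrow. The 4 others summed to 145 to 232, 123 to 167 and 73.3 to 97.9 RPM in the same order, and their part in the Il5ra reads was not tested. Basophil and mast cell markers summed to 0.00 to 2.52 RPM in tumor, 1.79 to 4.69 in the blood and 27.0 to 50.8 in bone marrow.

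**Figure D4:**
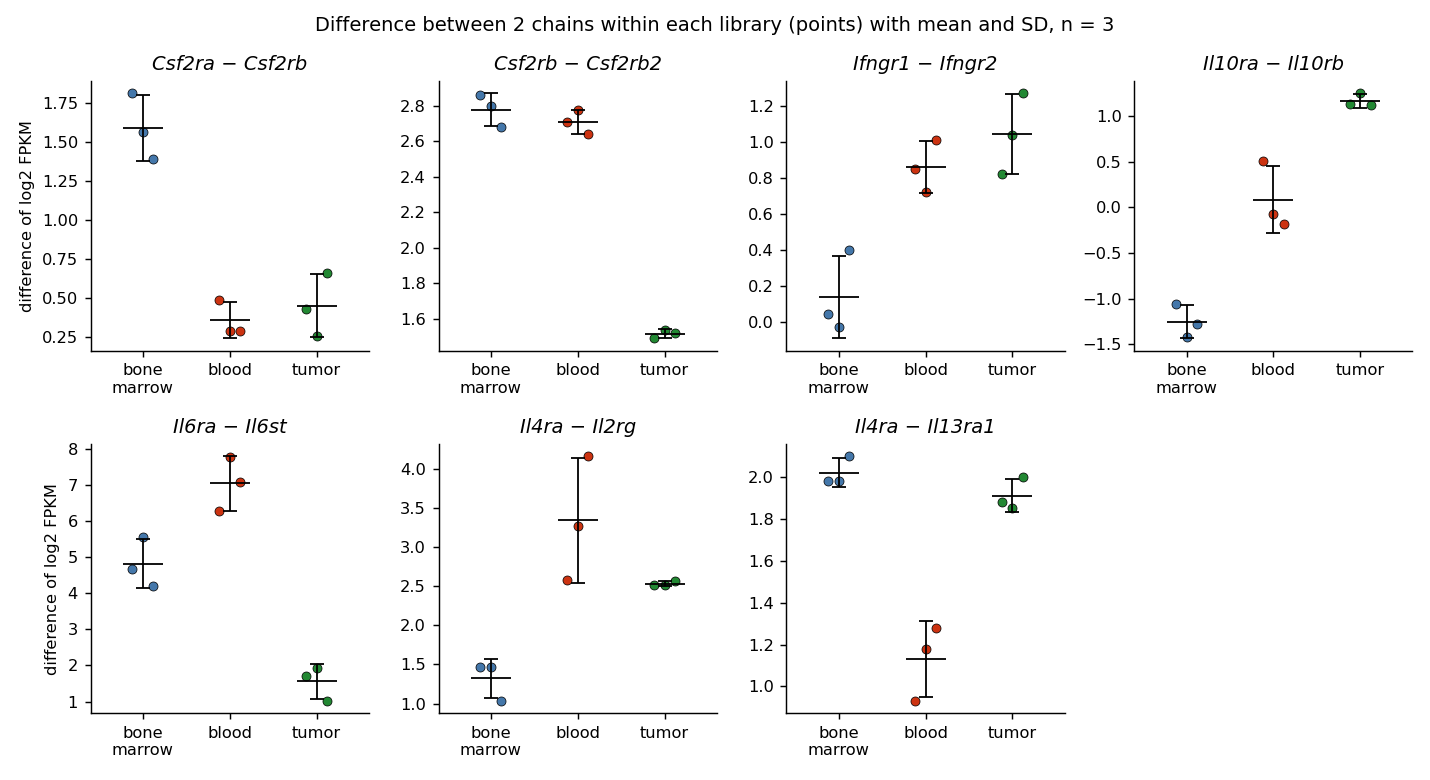
Difference in log2 FPKM between the chains of 6 receptor pairs, and between the beta chain genes Csf2rb and Csf2rb2, in each bone marrow, blood and tumor library (points, with mean and SD). The tumor libraries are lowest for Csf2rb minus Csf2rb2 (mean 1.51) and for Il6ra minus Il6st (1.56) and highest for Il10ra minus Il10rb (1.17).

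Of the 11 ligand genes, Csf1, which encodes M-CSF, was the only one to pass the filter. It had 166 to 185 reads in bone marrow, 782 to 1726 in the blood and 1910 to 3302 in tumor. Csf1 was higher in blood (log2 fold change 3.05, adjusted p = 9.19e-05) and in tumor (3.55, adjusted p = 1.91e-05) than in bone marrow, and differed by 0.50 between tumor and blood (adjusted p = 0.124), which became 0.95 (adjusted p = 0.00553) with plain library totals. Csf3 and Csf2, the genes of G-CSF and GM-CSF, had 7 to 20 and 11 to 14 reads in the tumor libraries and 0 in all others. Il34, the other ligand of CSF1R, had 37 to 124 reads in tumor, Il6 15 to 36 and Il10 7 to 28. Il4 had at most 3 reads and Ifng at most 2 in any library, and Il3, Il5 and Il13 had 0 in all 9.

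Among 11 JAK and STAT genes, the kinases and transcription factors that carry the signal, 10 passed the filter. In tumor 9 of them were lower than in the blood and none was higher, and 7 were higher and none lower in blood than in bone marrow, with median log2 fold changes of -1.02 and 0.79. Of all tested genes 34.5% were lower and 28.1% higher in tumor than in blood, and 20.6% were higher in blood than in bone marrow. With plain library totals 4 were called lower and 1 higher in tumor than in blood. The largest drops from blood to tumor were those of Stat5b (log2 fold change -2.48, adjusted p = 4.51e-05), which acts downstream of the GM-CSF receptor, Jak1 (-1.48, adjusted p = 2.74e-05), Stat3 (-1.42, adjusted p = 2.73e-05), which G-CSF and interleukins 6 and 10 activate, and Stat6 (-1.29, adjusted p = 0.000137), the factor of interleukin 4. In tumor against bone marrow 5 were lower and 1, Jak2, was higher (log2 fold change 1.83, adjusted p = 0.000232). Of all tested genes 32.9% were lower and 22.4% higher in that contrast. With plain library totals Stat3 (-0.12, limma adjusted p = 0.251) and Stat5a (-0.47, adjusted p = 0.171) were no longer called lower than in bone marrow. Stat2 was then called higher (0.72, adjusted p = 0.0168). Jak2 had 222 to 301 reads in bone marrow, 481 to 630 in the blood and 875 to 1290 in tumor. JAK2 is the kinase bound by the beta chain of the GM-CSF receptor and by IFNGR2.

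Of 18 signal inhibitor genes 14 passed the filter, and 3 were higher and 7 lower in tumor than in blood, 5 higher and 7 lower in tumor than in bone marrow, and 5 higher and none lower in blood than in bone marrow. In tumor against blood 28.1% of all tested genes were higher and 34.5% lower, in tumor against bone marrow 22.4% and 32.9%, and in blood against bone marrow 20.6% and 23.6%. Of the 14 genes 3, Ptpn2, Socs2 and Socs4, would not have passed the filter without the tumor libraries, and Ptpn11 and Socs4 not without the bone marrow libraries. Ptpn11 is among the genes counted as lower in tumor than in bone marrow. With plain library totals the split was 6 higher and 7 lower in tumor than in blood, and 5 and 4 against bone marrow. Socs2, a feedback gene of STAT5, had 0 to 1 reads in every bone marrow and blood library and 267, 271 and 327 in tumor. Cish, another STAT5 target and inhibitor, had 98 to 125 reads in bone marrow, 69 to 96 in the blood and 975 to 1379 in tumor, 3.13 higher than in blood on the log2 scale (adjusted p = 5.69e-06) and 3.10 higher than in bone marrow. Socs3, which restrains signaling of CSF3R and gp130, had a mean log2 FPKM of 5.32 in bone marrow, 8.39 in the blood and 8.83 in tumor. It was higher in blood (log2 fold change 3.08) and in tumor (3.51) than in bone marrow. The phosphatase gene Ptpn6 (-2.17, adjusted p = 1.47e-05) and the adaptor gene Sh2b3 (-2.13, adjusted p = 0.0024) were lower in tumor than in blood.

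A list of 28 target genes of these receptors, which shares members with the lists of inhibitors and of JAK and STAT genes, had 21 that passed the filter. In tumor 10 were higher and 4 lower than in the blood, and 15 higher and 2 lower than in bone marrow, with medians of 1.18 and 2.48, while blood had 9 higher and 4 lower than bone marrow (median 0.69). The shares of all tested genes were 28.1% and 34.5% against blood, 22.4% and 32.9% against bone marrow, and 20.6% and 23.6% for blood against bone marrow. Arg1, Cxcl10 and Iigp1 passed the filter only through the tumor libraries, where they are high, and are among the genes counted as higher there. Irf8 passed only through the bone marrow libraries and is among the genes counted as lower in tumor and in blood than in bone marrow. With plain library totals 14 were higher and 2 lower in tumor than in blood. Osm, which encodes oncostatin M and is induced through STAT5, had 750 to 1052 reads in the blood and 23983 to 31003 in tumor (log2 fold change 4.32, adjusted p = 5.86e-06). Myc was also higher in tumor than in blood (4.26, adjusted p = 0.00024). The interferon gamma targets Iigp1 and Cxcl10 had 362 to 480 and 372 to 845 reads in tumor, and at most 16 and 13 in a blood library. Arg1, a target of STAT6, had 0 to 4 reads in bone marrow, 31 to 52 in the blood and 581 to 1076 in tumor. Gbp2, an interferon-induced GTPase gene, was higher in blood than in bone marrow (log2 fold change 3.10, adjusted p = 1.98e-05) and differed by -0.15 between tumor and blood (adjusted p = 0.473). Chil3, which encodes a chitinase-like protein, was lower in blood than in bone marrow (-3.31, adjusted p = 0.000693). These genes are also made by other cells, and the tumor libraries carried the epithelial, fibroblast and acinar markers given above.

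**Figure D5:**
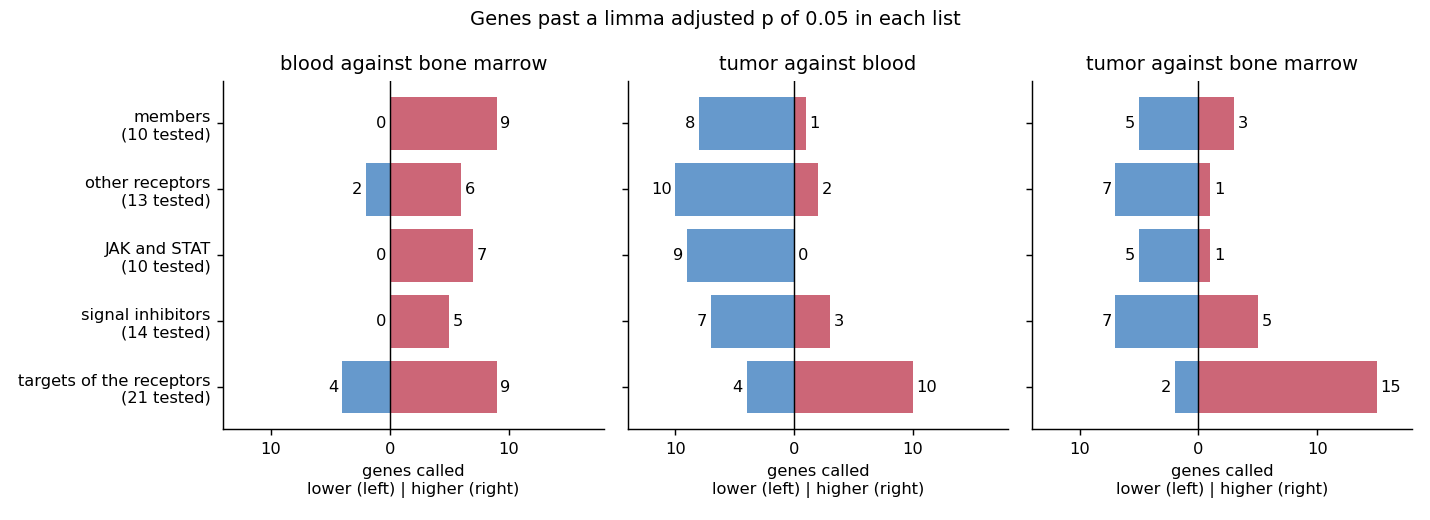
Number of genes higher and lower (adjusted p below 0.05) in each of the 3 contrasts for the 10 receptors and for the lists of other receptors, JAK and STAT genes, signal inhibitors and targets. In tumor against blood the receptors have 1 higher and 8 lower, JAK and STAT genes 0 and 9, and targets 10 and 4.

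The genes most like each receptor across the 9 libraries were found by Pearson's r of log2 FPKM over all tested genes, as a description of 9 points that share site and library. Csf3r was most like Prr5l (r = 0.998), Gpr146 (0.996) and Arid5a (0.995). Csf1r was most like Adam19 (0.999), H2-Q10 (0.997) and Ppt1 (0.997), and Il6ra most like Nlrp12 (0.997), Myd88 (0.994) and Adam19 (0.994). For Il10ra the nearest were Il1b (0.995), Socs3 (0.990) and Dusp1 (0.989), with means of Il1b at 5.67 in bone marrow, 8.97 in the blood and 10.19 in tumor. Ifngr2 was nearest to Coro1b (0.999), Csf2ra to Gm6180 (0.989), Csf2rb2 to Mbnl2 (0.990), Il4ra to Tlr6 (0.993) and Ifngr1 to Mfsd2b (0.994). Csf2rb was nearest to Ip6k1 and Gp1ba (both 0.993), the latter a platelet gene, and the red cell and platelet markers were highest in blood as Csf2rb was. Their part in the level of Csf2rb, or of Ifngr1 and the other receptors highest in blood, was not tested.

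Promoter windows of RefSeq (GRCm38.p6) were matched for 7 of the 10 genes, and the 250 bases upstream of the RefSeq start were searched on both strands. For Csf3r and Csf2ra this start lies inside the GENCODE interval given above. GAGGAA, the core that PU.1, a master factor of myeloid genes, recognizes, was found in 4 of 7 windows and in 23.3% of 32851 windows of the same length. The C/EBP motif TTGCNNAA was in 0 of 7 and in 9.6% of all, and the STAT motif TTCNNNGAA in 1 of 7 and in 7.0% of all. The matches are shown in 30 bases each, 5′ to 3′ on the strand of the gene, with the motif in capitals (in the opposite orientation for Il6ra and the PU.1 core of Csf2rb2), at chr4:126024561-126024590, chr3:89913249-89913278, chr15:78305871-78305900, chr19:61228419-61228448 and chr15:78305722-78305751 in the order given. Csf2ra has adjacent PU.1 cores, each shown in capitals on a line of its own in the same 30 bases. A match describes the letters alone.
Csf3r: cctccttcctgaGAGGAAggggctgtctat
Il6ra: cttcagcaccggTTCCTCaaatgtttcact
Csf2rb2: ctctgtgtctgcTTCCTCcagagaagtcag
Csf2ra: ttcccaacctgcagatGAGGAAgaggaagc
Csf2ra, adjacent core: ttcccaacctgcagatgaggaaGAGGAAgc
Csf2rb2, STAT motif: ggctagtgtccacaaTTCTGAGAAgcaagc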

How the data were processed

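RNA-seq was measured in 9 libraries of sorted mouse neutrophils, 3 per site, made by a SMARTSeq v2 protocol that keeps no strand. The authors deposited log2 FPKM values per gene, which they made from read counts. The labels name STAR 2.5.2b and featureCounts 1.5.0 among the tools, and the methods give GRCm38 with GENCODE M7 genes. In the deposited values the length was the genomic span for 84.5% of 46005 genes matched to GENCODE M21, so levels between genes are given only per exon length. Whole reads were recovered from the log2 values for 46517 of 46517 genes (within 0.001 of a whole number).

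limma 3.58.1 in R 4.3.3 was run on the deposited values of genes above a log2 FPKM of 0 in 3 libraries or more, all 3 sites in 1 fit with a mean-variance trend, and p-values were adjusted over 7794 genes by Benjamini-Hochberg. The script was tested on simulated data. Differences between chains were tested with exact permutation tests (two-sided, F statistic). The study describes 3 independent experiments of 5 pooled mice, and the labels do not tie libraries to experiments, so p-values measure the spread between these libraries, part of which may be technical. The 10 genes and all lists (ligands, partner chains, other receptors, JAK and STAT genes, inhibitors, targets and markers) were chosen with earlier results of these data known. Named were all 10 genes, partner chains and ligands, for each other list called genes with the largest absolute log2 fold changes, at most 4 per contrast, and the 3 genes most like a receptor. Genes named beside a result as markers, for the filter or for plain library totals were chosen after their values were seen. Alternatives were scaling (plain library totals, median centring, quantile), filters, a pseudocount of 1, voom on recovered reads, robust variance, a replicate block, fits on 2 sites, a log2 change of at least 1 and leaving out each library. A gene that the naming rule picks among the other receptors is not reported here.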

Additional observations from a re-analysis of the deposited data

How the results depend on the processing

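Under the alternatives run, 7 to 9 of the 10 receptors were called in tumor against blood (9 in the main fit), 8 to 9 in blood against bone marrow (9) and 4 to 8 in tumor against bone marrow (8). The value of 4 came from asking for a log2 change of at least 1, which by construction leaves out smaller changes. Leaving out each library in turn gave 8 to 9, 8 to 9 and 7 to 8 calls in the same order, and 7 to 7 of the 7 chain differences. Over single receptors and contrasts 538 values kept direction and side of the threshold, 20 kept direction but lost the call, 2 gained one and 10 changed sign. The 10 sign changes were of small differences, of which the change of Ifngr1 also ended a call, and the cause was not tested. In tumor against blood Csf2rb2 became 0.36 with plain library totals, 0.24 with quantile normalization and 0.13 without tumor replicate 3, and ranged from -0.22 to 0.13 over the libraries left out. In tumor against bone marrow Csf2rb became 0.32, 0.21 and 0.08 under those settings (-0.28 to 0.08 over the libraries left out), Csf3r became -0.06 without bone marrow replicate 3 and -0.01 without tumor replicate 2, and Ifngr1 became 0.20 with plain library totals. In blood against bone marrow Csf2ra became 0.06 without bone marrow replicate 1 (-0.23 to 0.06).

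Counts over all genes moved more. Tumor against blood had 2194 genes higher and 2686 lower, and 2923 and 1898 with plain library totals, 4611 and 2921 with no filter, 918 and 1644 with a filter at log2 FPKM 2, and 5871 and 3888 by voom on recovered reads. Tumor against bone marrow had 1745 and 2566, and 2601 and 1634, 3396 and 2574, 849 and 1529, and 5192 and 3722 under the same settings. Blood against bone marrow had 1605 and 1841, 1036 and 888 with the filter at 2, and 2449 and 2912 by voom. Of the counts for other lists 520 stayed within 1.5 times of the main count and 50 did not. Same-numbered libraries of different sites deviated together with correlations of -0.071 to 0.108, so the data do not show that the numbers pair them, and which libraries share mice is not given in the sources used here. A replicate block left the calls among the receptors at 9, 9 and 8 for blood against bone marrow, tumor against blood and tumor against bone marrow. No receptor was near the depth limit, the lowest having 232 reads in a library, while ligand genes and several partner chains were.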

Other observations

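Of 38 other cytokine and growth factor receptors, 13 passed the filter. In tumor 2 were higher and 10 lower than in blood (median log2 fold change -1.20), 1 was higher and 7 lower than in bone marrow (-0.66), and blood had 6 higher and 2 lower than bone marrow (0.76). Of the 13, 3 passed only through the blood libraries and 1 only through the tumor libraries. Of all tested genes 28.1% were higher and 34.5% lower in tumor than in blood, and 22.4% and 32.9% than in bone marrow. For blood against bone marrow the shares were 20.6% and 23.6%. With plain library totals 6 were lower in tumor than in blood. Igf1r (-0.39, limma adjusted p = 0.176) and Acvr1b (-0.21, adjusted p = 0.395) were then not called lower than in bone marrow. Ifnar1 (0.40, adjusted p = 0.00958) and Tgfbr1 (1.05, adjusted p = 0.0103) were then called higher in tumor than in bone marrow. Il17ra, the chain shared by interleukin 17 receptors, had 7107 to 12456 reads in the blood and 3037 to 4156 in tumor, a log2 fold change of -2.01 (adjusted p = 7.4e-06 by limma). Il17rc, its partner chain, had 0 to 11 reads in bone marrow and blood libraries and 143, 199 and 352 in tumor, and it passed the filter only through the tumor libraries, so no test is given. Il17rc is known from epithelial cells and fibroblasts, whose markers were high in the tumor libraries, and their part was not tested. Crlf2, the receptor chain for TSLP, was lower in tumor than in blood (-2.04).

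Acvrl1, a receptor of the TGF-beta family, was highest in bone marrow, with 2860 to 2998 reads against 91 to 122 in the blood and 302 to 387 in tumor. Its log2 fold change was -4.32 in the blood and -3.32 in tumor against bone marrow. Ifnlr1, the receptor chain for interferon lambda, had a mean log2 FPKM of 2.93 in bone marrow, 1.87 in the blood and -0.06 in tumor, lower at each step. Immature neutrophil genes summed to 96300 to 110000 RPM in bone marrow, 3720 to 4620 in the blood and 6610 to 10000 in tumor, and the part of maturation in the levels above was not tested. Lymphocyte markers summed to 34.8 to 62.4 RPM in bone marrow, 85.9 to 149 in the blood and 6.45 to 12.7 in tumor, and endothelium markers to 11.7 to 19.1, 35.2 to 42.6 and 70.5 to 114.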
